A study of Homo sapiens with 8 samples.

Results

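The loci of 5 transcription factors of the epithelial-mesenchymal transition, SNAI1, SNAI2, ZEB1, ZEB2 and TWIST1, were examined for sites listed as differing in accessibility. The cells were human embryonic stem cells treated to become surface ectoderm, and the sites differ by day of treatment or by p63 genotype. Members were the sites of both deposited lists whose centre lay in 1 of 5 fixed hg19 intervals around these genes, which gave 52 of 14191 listed sites. Of these, 38 came from the 8154 sites that the authors list as opened by the morphogens retinoic acid and BMP4 ("opened sites"), and 14 from the 6037 sites that the second list's name gives as opened by morphogens with p63 closing them ("p63-closed sites"). The intervals ran from 48400001 to 48900000 on chromosome 20 (SNAI1), from 48000001 to 50000000 on chromosome 8 (SNAI2), from 31200001 to 32200000 on chromosome 10 (ZEB1), from 144600001 to 145800000 on chromosome 2 (ZEB2) and from 18700001 to 19600000 on chromosome 7 (TWIST1).

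The assay was ATAC-seq, which marks open DNA by letting the Tn5 transposase cut and tag it, and was run on 8 samples of H9, a line of human embryonic stem cells, with 2 samples in each of 4 groups. The groups were p63-/- cells at day 7 of retinoic acid (1 uM) and BMP4 (5 ng/ml), wild-type cells at day 7 of the same treatment, cells with the inducible TetO:Tp63+/- transgene after 2 days of doxycycline (2 ug/ml), and wild-type cells at day 0. The labels attach the opened list to wild type at days 7 and 0, and the p63-closed list to the p63-/- and wild-type samples at day 7; no list was analysed for the transgenic line. The labels do not say whether the knockout line is 1 clone. Each list gives positions and a numbered site name but no value per sample, so depth is unknown, the surface ectoderm label could not be checked against markers, no level was compared between cultures, and the direction of each change is the authors' own.

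The epithelial-mesenchymal transition is the loss of cell junctions and polarity by which epithelial cells become motile. SNAI1 and SNAI2 are zinc finger repressors, ZEB1 and ZEB2 are repressors with zinc finger clusters at either end of the protein, and TWIST1 is a basic helix-loop-helix factor; all bind E-boxes, and the SNAI and ZEB proteins repress CDH1, the gene of E-cadherin. SNAI2, ZEB2 and TWIST1 are also known from the neural crest, which arises beside the surface ectoderm. TP63 encodes p63, a p53 family factor required for stratified epithelia.

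Because these proteins bind E-boxes, promoters of the members were searched for the E-box CACCTG on both strands (read as CAGGTG on the other strand). The search covered the 250 bases before each start in a table of promoters from RefSeq (GRCh38.p14). Of the members, only ZEB1 and ZEB2 had an entry in that promoter table, so SNAI1, SNAI2 and TWIST1 were not searched. The E-box was present in 2 of 7 ZEB1 start sites and 0 of 1 ZEB2 start sites, and in 17.5% of all 35116 promoters of the table. The ZEB1 start site with the most matches, at positions -242 and -85 (first base, counted back from the start), and the ZEB2 start site are shown to let both be compared, with E-boxes in capitals; a match is not a bound site. These positions are on another build from the lists, and no listed site was placed on them.
ZEB1 promoter, chr10:31318966-31319215, GRCh38.p14, plus strand: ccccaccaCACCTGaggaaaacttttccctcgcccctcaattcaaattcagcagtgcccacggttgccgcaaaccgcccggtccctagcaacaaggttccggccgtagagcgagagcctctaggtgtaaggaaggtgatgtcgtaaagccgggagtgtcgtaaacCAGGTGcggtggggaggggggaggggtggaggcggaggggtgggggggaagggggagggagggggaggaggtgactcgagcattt
ZEB2 promoter, chr2:144520120-144520369, GRCh38.p14, minus strand: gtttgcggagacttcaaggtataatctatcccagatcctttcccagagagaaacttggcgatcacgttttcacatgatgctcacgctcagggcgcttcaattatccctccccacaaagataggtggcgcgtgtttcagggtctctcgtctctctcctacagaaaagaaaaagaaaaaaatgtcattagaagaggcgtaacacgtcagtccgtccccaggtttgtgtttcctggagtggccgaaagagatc

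The loci differed in which list their sites came from. The SNAI2 interval held 31 opened and 2 p63-closed sites, and the ZEB2 interval held 1 opened and 9 p63-closed sites. The TWIST1 interval held 4 opened and 2 p63-closed sites, the ZEB1 interval 1 of each, and the SNAI1 interval 1 opened site. The p63-closed share of listed sites was 6.06% at SNAI2 (exact 95% Clopper-Pearson interval 0.743 to 20.2%) and 90.0% at ZEB2 (55.5 to 99.7%), against 42.5% in the whole series. These intervals cover counting error only and treat neighbouring sites as independent, which they are not. The low share at SNAI2 also follows in part from an interval set where opened sites were known to be dense, so the shares are a description and no test of a difference. At TWIST1 the share was 33.3% (4.33 to 77.7%), an interval that holds the whole-series share. Over all 5 loci it was 26.9%, a value that rests on SNAI2 and ZEB2: it was 63.2% without SNAI2 and 11.9% without ZEB2.

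**Figure D1:**
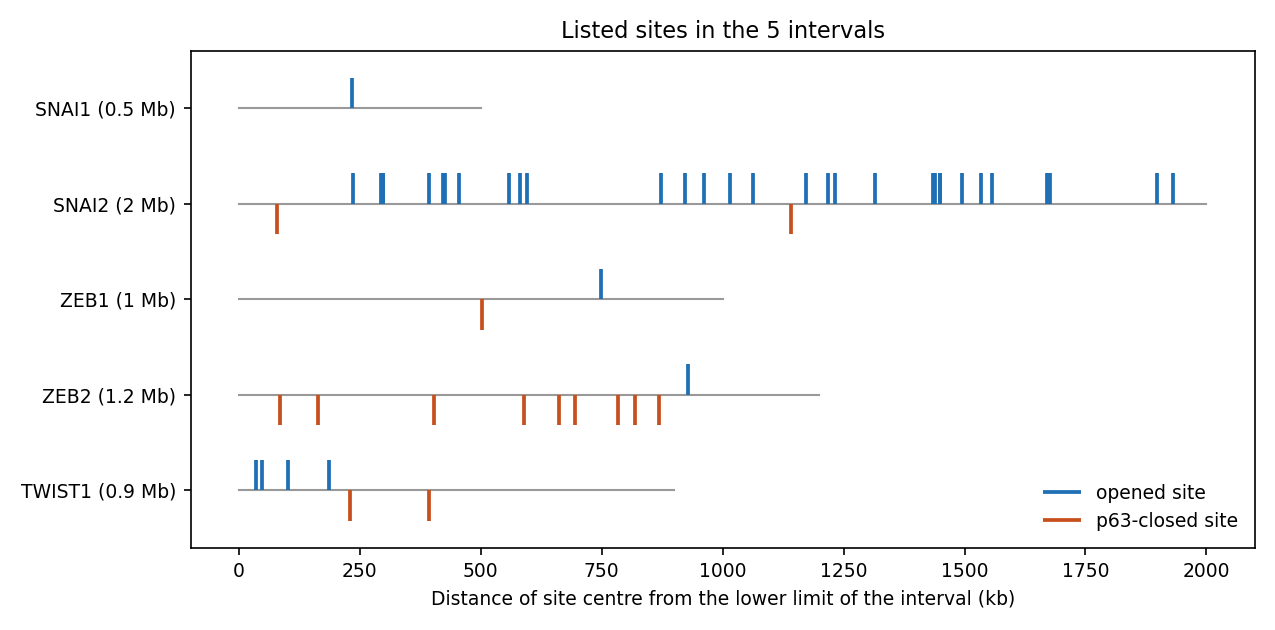
Position of each of the 52 listed sites, as the distance of its centre from the lower limit of its interval in kb (x axis), with 1 line per locus and the length of the line as the length of the interval; opened sites point up and p63-closed sites point down. At SNAI2, 31 sites point up and 2 down, and at ZEB2 9 point down and 1 up.

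Counts were set beside the number expected from the list-wide density. Site names carry numbers that run along the chromosomes, as in a catalogue of candidate regions, and the expected number is the interval's share of these entries times the length of the list. Entries were spread alike over the loci, at 614 per Mb in the SNAI2 interval to 679.8 per Mb in the SNAI1 interval, against 625 per Mb in the whole series. SNAI2 held 5.66 times the expected 5.47 opened sites (95% Poisson interval of the ratio 3.85 to 8.04). Its limits were set where opened sites were known to be dense, so this excess is a description and its Poisson interval is no test. ZEB2 held 3.35 times the expected 2.69 p63-closed sites (1.53 to 6.36). The members were chosen with earlier results of these data known, and neighbouring sites are not independent. The Poisson interval at ZEB2 covers counting error only and is no test either. For every other count in the loci the Poisson interval of the ratio held 1: opened sites numbered 4 against 2.66 expected at TWIST1, and were at 0.660 times expected at SNAI1, 0.343 at ZEB1 and 0.276 at ZEB2, and p63-closed sites at 1.01 at TWIST1, 0.493 at SNAI2 and 0.463 at ZEB1. At SNAI1 0 p63-closed sites were listed where 1.12 were expected, and the upper limit of the same Poisson interval was 3.29 times the expected number. The few sites at SNAI1 and ZEB1 thus do not show a lack of change there.

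**Figure D2:**
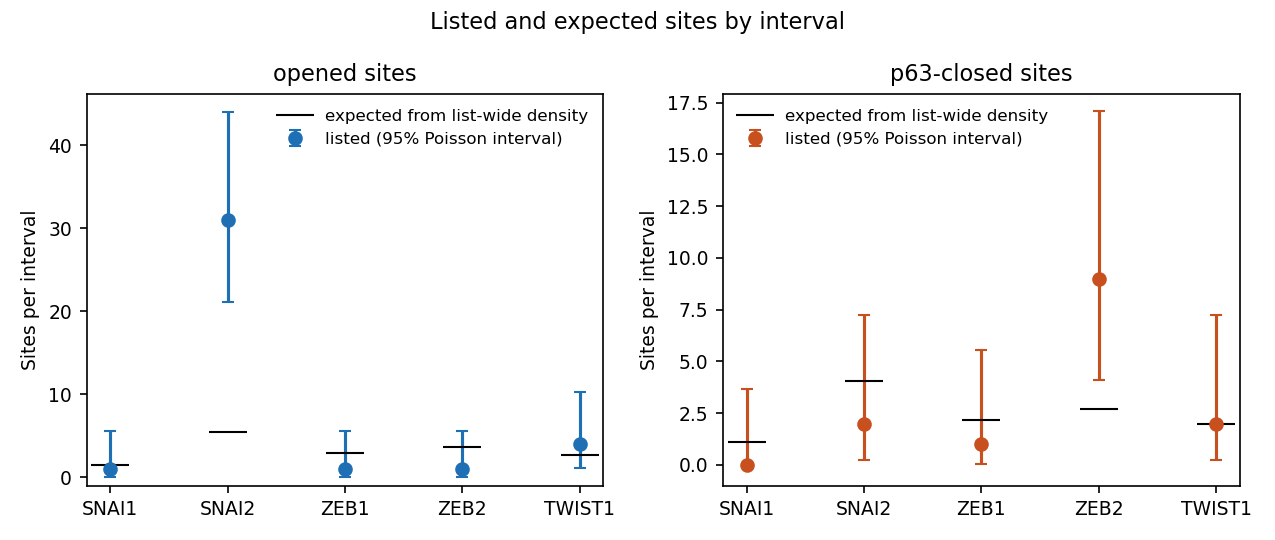
Number of listed sites per interval (y axis; points, with exact 95% Poisson intervals) for opened sites (left) and p63-closed sites (right), with the number expected from the list-wide density as black bars. The expected number lies outside the interval of the count for opened sites at SNAI2 (31 listed, 5.47 expected) and p63-closed sites at ZEB2 (9 listed, 2.69 expected). The limits of SNAI2 were set where opened sites were known to be dense, so its excess is a description. That at ZEB2 is also a description, as the members were chosen with earlier results of these data known.

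At the SNAI2 locus, opened sites ran across nearly the whole interval. In the gene table, which is on GRCh38.p14, SNAI2 lies between CLXN and PPDPFL, with MCM4 and UBE2V2 before CLXN and SNTG1 after PPDPFL. Which of these genes lie in the interval, and whether any site covers them, was not determined. Sites of the intervals are therefore not assigned to genes. The first opened site lay from 48235771 to 48236600 and the last from 49930477 to 49931460. Opened sites were in 15 of 20 bins of 100 kb, with at most 5 per bin, from 49400001 to 49500000. The lower Mb held 14 and the upper Mb 17, at 21.9 and 28.8 opened sites per 1000 entries, against 4.46 in the whole series. Limits of this interval coincide with those of windows already known to be rich in opened sites, so the excess is a description.

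The p63-closed sites at SNAI2 were 2, from 48078332 to 48079645 and from 49140235 to 49141323. The first lay before all opened sites of the interval and the second among them. The second divides the opened sites into unbroken runs of 16, from 48235771 to 49064424, and 15, from 49171221 to 49931460. In the whole series, 42 of 2743 runs of opened sites (1.53%) held at least 15. That share counts each run once whatever its length, so the share of opened sites in such runs is larger. The long runs here also follow in part from an interval set where opened sites were known to be dense. The closest pair of different lists was the second p63-closed site and the opened site from 49171221 to 49172052, with centres 30.9 kb apart. Beyond the limits the nearest listed sites were p63-closed on both sides, from 47868161 to 47869430 and from 50470009 to 50471337, 131 kb below and 471 kb above the limits; the sites just inside were p63-closed at 79.0 kb and opened at 69.0 kb.

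The spacing of opened sites at SNAI2 was uneven. With steps of at most 50 kb, 6 groups of 3 or more opened sites formed, and no p63-closed site lay within any of them. That absence follows in part from how few p63-closed sites the interval holds, and the same was not counted over the full list. The group with the most sites held 7, from 49434269 to 49556901, with 10.3% of its 123 kb covered. The tightest held 3 sites from 48292314 to 48298393, with 68.0% of its 6.08 kb covered. The others held 4 sites from 48391785 to 48456033 and 3 each from 48556507 to 48596571, from 48872153 to 48961063 and from 49171221 to 49232313. Between the third and the fourth of these groups in order of position lay the longest stretch with no listed site, 276 kb. A second opened site lay within 50 kb of 29 of the 31 opened sites (93.5%), against 40.3% for the full list, and 1 had a p63-closed site that near (3.23% against 22.0%). Both shares follow in part from the numbers of opened and p63-closed sites in the interval.

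Some neighbours at SNAI2 were adjoining entries of the catalogue. Of the 32 neighbouring pairs, 3 had consecutive numbers (9.38%, against 2.71% of pairs in the whole series), and both sites of each were opened. This share rests on 3 pairs and follows in part from the number of opened sites in the interval. The closest pair of all was 174 bp apart, after the site from 48296692 to 48297581. Gaps of 249 bp and 850 bp followed the sites from 49448015 to 49449404 and from 49434269 to 49437224. With sites of one list within 10 kb joined, the locus held 24 opened sites, 4.78 times the expected number. That ratio follows in part from an interval set where opened sites were known to be dense. All 33 sites of the locus are 3.92% of the 841 listed on chromosome 8, where the p63-closed share was 36.1%.

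At the ZEB2 locus most sites came from the p63-closed list, and they lay over most of the interval. ZEB2 and its antisense gene ZEB2-AS1 lie between QTMAN and ACVR2A in the gene table. The first p63-closed site lay from 144682864 to 144684877 and the last from 145467750 to 145470495. The other 7 were at 144761258 to 144763334, 145001555 to 145002754, 145189483 to 145190131, 145261418 to 145262536, 145294228 to 145294916, 145382072 to 145383832 and 145417052 to 145419093. They fell into 7 of 12 bins of 100 kb, with at most 2 per bin. The only opened site, from 145527417 to 145529537, lay on the upper side of all of them, 59.4 kb between centres from the last.

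The 9 p63-closed sites at ZEB2 were part of an unbroken run of 11 that began outside the interval and went from 144359924 to 145470495, over 1111 kb. Runs of at least 11 made up 28 of 2729 runs of p63-closed sites (1.03%). That share counts each run once whatever its length, so the share of p63-closed sites in such runs is larger. The run also follows in part from how few opened sites lie there. The sites nearest to the limits on the outside were also p63-closed, from 144491637 to 144492335, 108 kb below, and from 145865824 to 145867138, 66.5 kb above; just inside lay a p63-closed site at 83.9 kb and the opened site at 272 kb. The closest pair, the sites from 145261418 and from 145294228, had centres 32.6 kb apart. The sites from 145382072 to 145470495 formed the only group of 3 with steps of at most 50 kb, with 7.41% of its 88.4 kb covered. Within 50 kb of another p63-closed site lay 4 of 9 (44.4%, against 41.8% of all p63-closed sites), and the median distance between centres of nearest p63-closed sites was 51.1 kb, against 74.6 kb in the list. An opened site lay within 50 kb of 0 of the 9, against 28.9% of the list. This value follows in part from how few opened sites the interval holds. The longest stretch with no listed site was 270 kb, from the opened site to the upper limit.

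At the TWIST1 locus the opened sites lay below the p63-closed sites. Sites lay in the lower part of the interval only, and the upper 507 kb had none. TWIST1 lies between HDAC9 and FERD3L in the gene table, and in mouse some enhancers of Twist1 are known to lie within Hdac9; whether any site here lies in HDAC9 was not determined. The 4 opened sites came first, in an unbroken run from 18732805 to 18888185, of a length reached by 24.9% of runs of opened sites in the whole series, followed by p63-closed sites from 18928481 to 18931333 and from 19091278 to 19093008. The closest opened sites, from 18732805 to 18735423 and from 18747420 to 18748262, had centres 13.7 kb apart. The last opened site, from 18885261 to 18888185, and the first p63-closed site were the closest pair of different lists, 43.2 kb between centres. Outside the limits the nearest sites were a p63-closed site from 18153314 to 18154895, 546 kb below, and an opened site from 20181363 to 20182142, 582 kb above, while the sites just inside were 34.1 kb and 508 kb from the limits.

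The ZEB1 and SNAI1 loci held few sites. At ZEB1, whose gene lies between ZNF438 and LOC124906892 in the table, with ARHGAP12 next, a p63-closed site lay from 31701847 to 31703023 and an opened site from 31948387 to 31949979, with centres 247 kb apart. The lower 502 kb of the interval had no listed site. The nearest sites outside were opened, from 31086648 to 31089138, 112 kb below, and from 33170340 to 33171844, 971 kb above. At SNAI1, which lies between RNF114 and PEDS1-UBE2V1, the single opened site lay from 48632168 to 48633997. Its nearest p63-closed site, from 48948656 to 48949880, was 49.3 kb above the interval, and the nearest site below was opened, from 47154089 to 47156007, 1245 kb from the limit.

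How common such counts are was read from windows of the same length laid end to end over the genome. Of 1434 windows of 2 Mb, 0.0697% held at least 31 opened sites, which is the SNAI2 window itself. The median was 5 and the next highest 25. The SNAI2 interval was set where opened sites were known to be dense, so its rank follows from that choice and is a description. At most 2 p63-closed sites were found in 39.1% of these windows, so the low number of p63-closed sites at SNAI2 was common by itself. With windows moved in steps of 100 kb, no window of 2 Mb elsewhere held more than 26 opened sites, on chromosome 11 from 56200001 to 58200000. At least 9 p63-closed sites were found in 3.65% of 2414 windows of 1.2 Mb (median 2), at least 9 with at most 1 opened site in 0.787%, and at most 1 opened site in 27.3%. ZEB2 was thus not at the far end of the list, where windows moved in steps reached 20 p63-closed sites, on chromosome 3 from 24200001 to 25400000. At least 4 opened sites, as at TWIST1, were found in 26.4% of 3227 windows of 0.9 Mb and at least 2 p63-closed sites in 44.6%. At most 2 listed sites, as at ZEB1, were found in 28.5% of 2902 windows of 1 Mb. An opened but no p63-closed site, as at SNAI1, was found in 28.9% of 5830 windows of 0.5 Mb. Counts at these 3 loci were thus common ones.

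**Figure D3:**
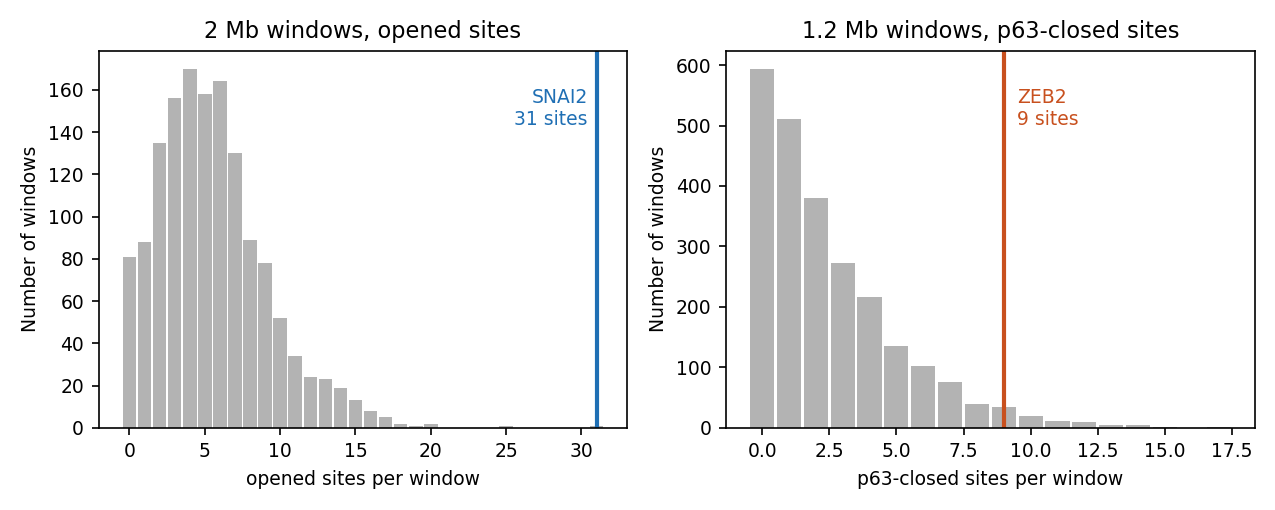
Number of windows (y axis) by the number of sites they hold (x axis), for opened sites in windows of 2 Mb (left) and p63-closed sites in windows of 1.2 Mb (right) laid end to end over the genome; lines mark the intervals of SNAI2 and ZEB2. SNAI2, at 31 opened sites, is above the next highest window, at 25, whereas ZEB2, at 9 p63-closed sites, is in the upper tail below the highest window, at 17. The rank of SNAI2 follows from an interval set where opened sites were known to be dense.

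Fixed windows of 1 Mb were tested over the whole genome for more sites than their entries predict (one-sided Poisson test, Benjamini-Hochberg adjustment, threshold 0.05). Both SNAI2 windows were called for opened sites, with 14 sites against 2.85 expected (adjusted p = 0.00112) and 17 against 2.63 (adjusted p = 4.69e-06), where 2.0% of 2948 windows were called. The SNAI2 interval consists of exactly these windows, which were known to be rich in opened sites when it was set, so these calls follow from the choice and support nothing further. Of the windows that touch the ZEB2 interval, the one from 145000001 to 146000000 was called for p63-closed sites, with 10 against 2.26 expected (adjusted p = 0.0112), where 2.37% were called. Of these 10 sites, 7 lie in the ZEB2 interval and 3 above its upper limit, so the call is not one of the locus alone. No window that touches the SNAI1, ZEB1 or TWIST1 intervals was called for either list. Sites gather throughout the genome, and with a negative binomial test that allows for it 0.0% of windows were called for either list. At an unadjusted p under 0.05 the negative binomial test had 4.78% of windows for opened sites and 4.04% for p63-closed sites, shares below the threshold itself; both SNAI2 windows (p = 0.0018 and 0.000165, adjusted p = 0.670 and 0.162) and the ZEB2 window (p = 0.0140, adjusted p = 1) were among them.

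The split between the lists was tested in the 1072 windows of 1 Mb with at least 6 sites (two-sided Fisher's exact test against the rest of the genome), of which 0.933% were called after adjustment. No window of these loci was. The adjusted p was 0.0907 and 0.0666 in the SNAI2 windows, each with 1 p63-closed site, and 0.0666 in the ZEB2 window, with 1 opened and 10 p63-closed sites. Their unadjusted p was 0.00353, 0.00114 and 0.0013, where 21.1% of windows had one under 0.05. The window from 18000001 to 19000000, of which 300 kb lie in the TWIST1 interval, had an adjusted p of 1; it holds the 4 opened sites of the locus, 1 of its p63-closed sites and 1 p63-closed site outside it. That sites came mostly from the opened list at SNAI2 and from the p63-closed list at ZEB2 is therefore a description. No test of a window's split passed in these loci.

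Neighbouring sites in the loci mostly came from the same list. This was so of 29 of 32 pairs at SNAI2 (90.6%), 8 of 9 at ZEB2 (88.9%) and 4 of 5 at TWIST1 (80.0%), against 61.5% of 14168 pairs in the whole series. At ZEB1 the single pair was mixed. The values for SNAI2 and ZEB2 follow in part from how few sites of the other list they hold. The median gap between neighbours was 37.0 kb at SNAI2, 71.3 kb at ZEB2 and 51.4 kb at TWIST1, against 94.7 kb in the whole series. The locus values leave out gaps that cross a limit, such as 539 kb after the last site at SNAI2. They are therefore shorter in part by construction, and at SNAI2 also from the known density of opened sites.

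The median width of opened sites was near that of the list at SNAI2 and well above it at TWIST1. The 31 opened sites at SNAI2 had a median width of 1590 bp (range 638 to 3606 bp), against 1597 bp for all opened sites, and 15 of them were wider than that. The widest lay from 49668316 to 49671921, wider than 98.5% of the list, and a further wide site, of 2892 bp, followed 3.50 kb after it. The p63-closed sites of the locus were 1314 and 1089 bp wide. The 9 p63-closed sites at ZEB2 had a median of 1761 bp (649 to 2746 bp), against 1531 bp for all p63-closed sites, with 5 of 9 above that; the widest was the last, from 145467750 to 145470495. At TWIST1 the medians were 2633 bp for opened and 2292 bp for p63-closed sites. There 3 of 4 opened sites were 2619 to 2925 bp wide, each at least as wide as 90.2% of the list, and the fourth was 843 bp; the p63-closed sites were 2853 and 1731 bp wide. The sites at ZEB1 were 1593 bp (opened) and 1177 bp (p63-closed) wide, and that at SNAI1 1830 bp. Together the sites covered 51.7 kb (opened) and 2.40 kb (p63-closed) at SNAI2, and 2.12 kb and 14.3 kb at ZEB2.

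**Figure D4:**
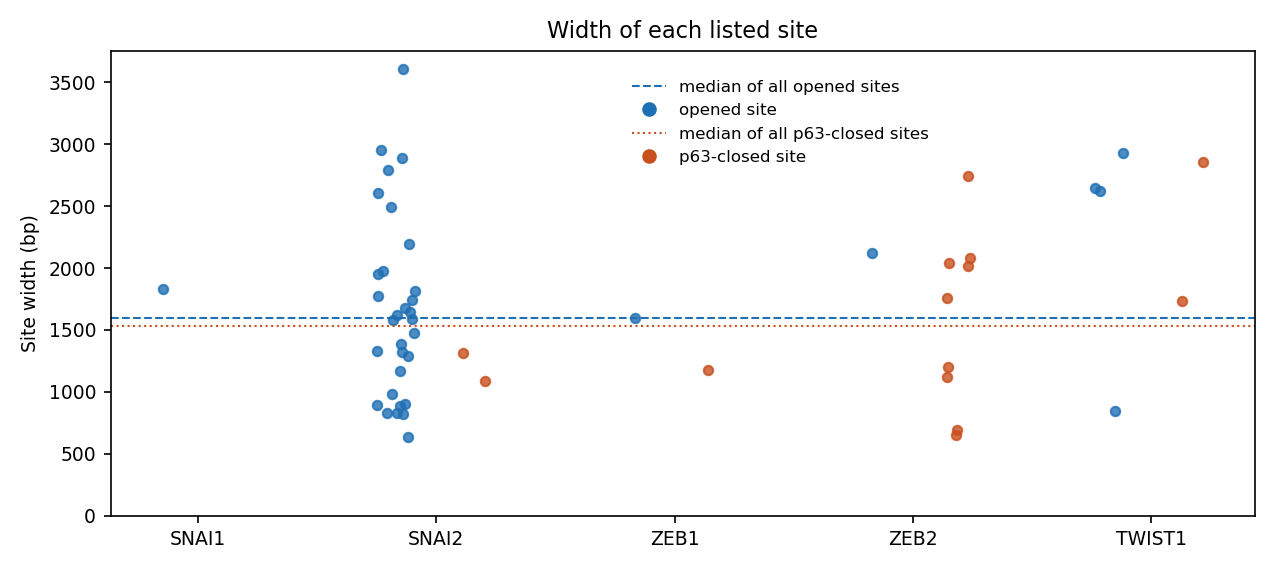
Width in bp (y axis) of each listed site by locus (x axis; points spread sideways for sight), with the medians of all opened sites (dashed, 1597 bp) and all p63-closed sites (dotted, 1531 bp). The opened sites at SNAI2 run from 638 to 3606 bp on either side of the median of their list, and the p63-closed sites at ZEB2 run from 649 to 2746 bp.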

How the data were processed

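ATAC-seq was done on 8 samples in 4 groups of 2, of which 2 lists of sites were analysed. Per the submitters' processing notes, FastQC, Bowtie2, SAMtools, MACS2 and DESeq2 were used, with the builds hg19 and GRCh37 (names for 1 assembly); which versions, thresholds or pooling of replicates applied was not given in the sources used here. Both deposited lists hold chromosome, start, end and a numbered name; the values used are the authors' positions in base pairs (other unit: no count, score or signal), so depth is unknown. A list can miss sites that changed less than the authors' threshold.

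Members and gene choices were made with earlier results of these data known. Sites were assigned by their centre; positions are 1-based. Numbers between neighbouring sites gave catalogue entries (1830281 in all); at 6 jumps in the numbering, entries were taken as 1 per 1495 bp. Named were the first, last and widest site of each list in each interval, the closest pairs, groups of 3 or more within 50 kb steps, and the sites beside each limit. Window tests ran over the whole genome. Intervals are exact at 95% and cover counting error only. No hg19 genome or annotation was used. Gene order came from RefSeq's GRCh38.p14 gene table, in which 5 of 5 members matched, unlike in the promoter table. Alternatives concerned limits, joining, width, expectation and windows. Scripts used scipy 1.17.1, pandas 2.3.3, numpy 2.4.6 and matplotlib 3.10.9 under Python 3.11.15.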

Additional observations from a re-analysis of the deposited data

How the results depend on the processing

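No paired analysis was possible because neither list has a value for any sample, and no replicate could be left out. Leaving out SNAI2 or ZEB2 from the totals, and joining sites in the Poisson tests, were chosen after seeing the data; the other alternatives were fixed earlier. Counts of 38 opened and 14 p63-closed sites stayed within 1.5 times when membership was by 1 bp of overlap or by whole sites, when limits moved by 100 kb, and when sites within 10 kb were joined. Keeping only sites at least as wide as the list median, which removes about as many sites by construction, left 20 opened and 7 p63-closed sites, with 15 opened at SNAI2 and 5 p63-closed at ZEB2, at 5.48 and 3.72 times the expected number. Without SNAI2 there were 7 opened sites and a p63-closed share of 63.2%; without ZEB2 there were 5 p63-closed sites and a share of 11.9%. Over the alternatives, the ratio to expected ran from 4.78 to 6.03 for opened sites at SNAI2 and from 3.35 to 3.72 for p63-closed sites at ZEB2. These ratios are a description, at SNAI2 in an interval set where opened sites were known to be dense.

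Under a negative binomial test, 0 windows passed for opened and 0 for p63-closed sites (smallest adjusted p 0.162 at SNAI2 and 1 at ZEB2). An expectation by base pairs called 107 windows for p63-closed sites. Under the Poisson test, joined sites left 14 and 35 windows, with SNAI2 and ZEB2 windows among them (adjusted p = 0.00468 and 0.0132). The SNAI2 calls follow from an interval set where opened sites were known to be dense and support nothing further. Windows with an uneven split went to 3 with shifted windows, 1 with 500 kb windows and 0 with joined sites; the cause was not tested. Over these settings the smallest adjusted p of the split was 0.0526 to 0.187 at SNAI2 and 0.0515 to 0.0946 at ZEB2. With no score per site, no stricter threshold was tried.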

Other observations

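The opened list is deposited as 3 stretches of rows, each of which runs through all 23 chromosomes again, with 4549, 2706 and 899 sites (55.8%, 33.2% and 11.0% of the list). The labels do not say what sets them apart. Their median widths were 1469, 1770 and 1710 bp. All 3 stretches were present at SNAI2, with 14, 11 and 6 opened sites (45.2%, 35.5% and 19.4%), whereas at TWIST1 3 sites came from the first stretch and 1 from the second, and the single opened sites of SNAI1, ZEB1 and ZEB2 came from the first. The sites of the 3 stretches were interleaved along the SNAI2 locus: the lower Mb held 4, 7 and 3 of them and the upper Mb 10, 4 and 3, and the closest pair, 174 bp apart, joined a site of the second stretch to one of the first. This was noticed after the lists had been seen, and no test was made.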
